A study of Gallus gallus with 12 samples.

Results

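The genes described here build and feed the DNA replication machinery: the origin recognition complex and the factors that license and fire origins, the replicative polymerases, the sliding clamp with its loader, the single-strand binding and Okazaki fragment enzymes, the enzymes that supply deoxynucleotides, and the proteins that restore chromatin and its methylation behind the fork. Of 45 genes listed by symbol, 42 had at least 1 probe set annotated with that symbol on the Affymetrix chicken array, out of 13008 genes with a single symbol. They were read by 69 of 37693 chicken probe sets. CDC6, POLD1 and TIMELESS had no probe set with their symbol and were not analysed here. Where a gene had several probe sets, the brightest on average over the 12 arrays represents it, and the others are given where they differ.

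Neural tubes of chick embryos at stages HH10 to HH11, with 11 to 15 somites in the design text, were electroporated inside the egg. The growth protocol gives a narrower range of somites. The control group received the vector given as pGIG-GFP, the second group pCIGNEUROG2-GFP and the last pCIGNEUROG2AQ-GFP, so all 3 groups were electroporated and made GFP. GFP-positive cells were sorted 6 hours later, and each of the 4 arrays of a group was made from 50 ng of RNA of a separate pool of 20 embryos. NEUROG2, a proneural transcription factor, drives neural progenitors towards neuronal fate. The labels do not define NEUROG2AQ, a name used in other work for a form changed in the DNA-binding basic region. The labels give neither the stage of the cell cycle nor the share of neurons among the sorted cells, and state no promoter for the plasmids.

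Replication starts at sites bound by the origin recognition complex, onto which CDC6 and CDT1 load the replicative helicase in G1 phase. Kinases then fire the origins, polymerase alpha with its primase lays primers, and polymerases delta and epsilon extend them on the PCNA clamp. Many of these genes are transcribed around the entry into S phase under E2F factors, and cycling progenitors of the neural tube express them while postmitotic neurons do so little. Signals are log2 values in which a difference of 1 means a doubling; they compare the same probe set between arrays and do not rank genes against each other.

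The deposited signals of all chicken probe sets had array medians from 2.81 to 2.90. Markers of the neural tube, the labelled tissue, were present. In control arrays the mean log2 signal over 11 measured markers such as SOX2, SOX1, PAX6 and NES was 8.27 to 8.41. It was 7.50 to 7.77 with NEUROG2 and 7.81 to 7.92 with NEUROG2AQ. The markers did not fall uniformly: with NEUROG2, 7 of the 11 were lower than control and 4 did not pass. Of those 4, NES and MSI1 differed by 0.37 and 0.07. With NEUROG2AQ 0 of the 11 passed against control, but all 11 were below 0. Their median difference was -0.35, and that of all genes 0.01. For 6 of the 11 every NEUROG2AQ array lay below every control array, which held for 2.7% of all genes. Between the 2 forms, 3 were lower with NEUROG2 and 1, NES, was higher, by 0.72 (limma adjusted p = 0.0113). Of all genes 4.14% were lower and 5.55% higher between the forms. Over 10 measured neuronal markers the mean log2 signal was 5.61 to 5.79 in control, 7.07 to 7.30 in NEUROG2 and 5.25 to 5.47 in NEUROG2AQ arrays. Compared with control, 8 of these 10 were higher with NEUROG2, where 5.21% of all genes were. With NEUROG2AQ 2 of the 10 were lower than control, where 0.0923% of all genes were. The neuronal list also named DLL1 and NHLH1, and its mean is not a count of neurons. Neural crest markers, 10 of them, were also lower in the NEUROG2 arrays: their mean was 5.68 to 6.15 in control, 5.22 to 5.52 in NEUROG2 and 5.69 to 5.99 in NEUROG2AQ arrays. Against control 4 of the 10 were lower with NEUROG2, SOX10 by a log2 difference of -1.50, SNAI2 by -1.41, MSX1 by -1.12 and FOXD3 by -0.77, and 6 did not pass. Also lower with NEUROG2 were 1 of 8 ectoderm and placode, 1 of 6 notochord and floor plate, and 1 of 12 blood and endothelial markers. Of 10 somite markers and of 10 endoderm and lateral plate markers 0 passed. Over all genes 5.37% were lower and 5.21% higher in this comparison. In RNA from sorted pools, fewer cycling cells and less transcript per cell cannot be told apart. The array's NEUROG2 probe set read 5.28 to 6.07 in control, 3.69 to 4.10 in NEUROG2 and 4.56 to 4.77 in NEUROG2AQ arrays, and does not check the labels, which do not say what part of the transcript it reads. Control replicate 1 stood apart: its mean over 10 somite markers was 3.99, against 2.96 to 3.42 in the other control arrays, and over 6 notochord and floor plate markers 5.07 against 4.13 to 4.47. For both lists, replicates 1 and 2 were above replicates 3 and 4 in the control and NEUROG2 groups, but not in the NEUROG2AQ group. The somite means were 3.35, 3.39, 2.92 and 2.96 in NEUROG2 replicates 1 to 4, and 2.88, 3.07, 2.64 and 2.98 in NEUROG2AQ replicates 1 to 4. The mean over 12 blood and endothelial markers reached 3.81 in control replicate 4, while the other controls had 2.81 to 3.26. A measure of RNA degradation, the log2 excess of 3' over 5' signal for actin and EF1A, was 1.72 to 1.98 in control, 1.59 to 1.90 in NEUROG2 and 2.03, 2.14, 2.10 and 1.52 in NEUROG2AQ replicates 1 to 4. The first 3 NEUROG2AQ arrays were above all control and NEUROG2 arrays, and replicate 4 was the lowest of the 12. What part these differences have in the results below was not tested. Results are also given with each array left out singly, and without both control replicate 1 and NEUROG2AQ replicate 4. NEUROG2AQ replicates 1 to 3, which share the high 3' excess, were not left out together.

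The comparison of NEUROG2 with control asks what the factor does to replication transcripts within hours. Of 42 measured genes, 20 fell and none rose, and 22 did not pass. A gene is said to have fallen or risen where the adjusted p of limma's test over all chicken probe sets was below 0.05. That share is 47.6% lower, while 5.37% of all 13008 genes were lower and 5.21% higher. The median difference of the 42 genes was -0.43 on the log2 scale, and that of all genes 0.01. The 20 genes that fell kept between 43.2% and 78.6% of the control signal. For 21 of the 42, all 4 NEUROG2 arrays lay below all 4 control arrays, which held for 7.79% of all genes. For 0 genes did they lie wholly above, against 8.11% of all genes. The members and their roles were listed with earlier results of these arrays known, so these counts describe the list.

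**Figure D1:**
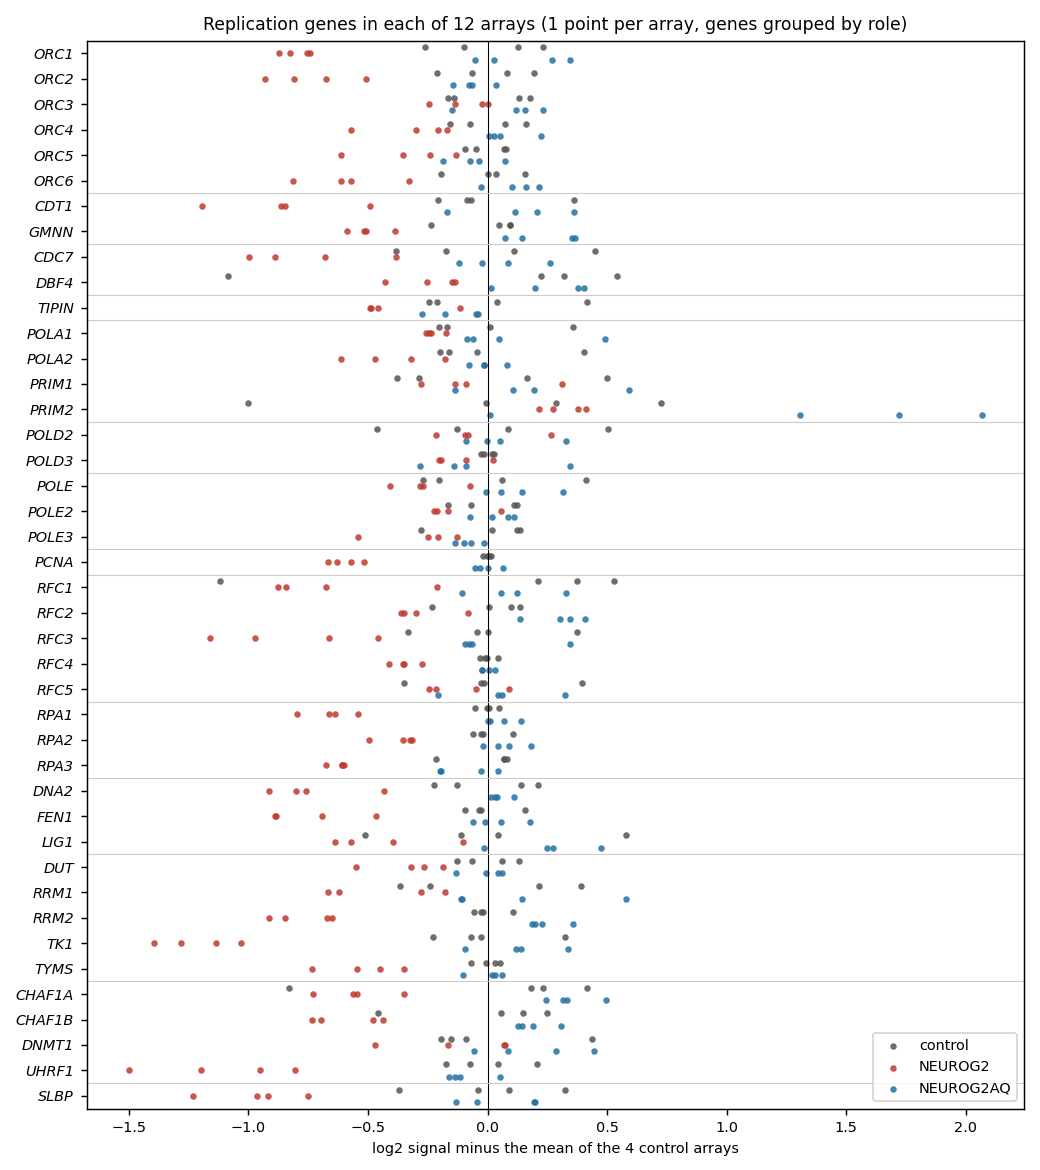
Log2 signal of each of 42 replication genes in each of the 12 arrays (horizontal axis, minus the mean of the 4 control arrays), with genes on the vertical axis grouped by role; grey points are control, red NEUROG2 and blue NEUROG2AQ arrays. The red points lie to the left of the grey and blue ones for genes such as TK1, SLBP, UHRF1, PCNA and RPA1, and mix with them for most polymerase genes.

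Of the 6 subunits of the origin recognition complex, 3 fell, where 5.37% of all genes were lower. All 6 differences were below 0, and differences between subunits were not tested. ORC1, the large subunit whose abundance follows the cell cycle in mammalian cells, read 7.17, 7.66, 7.56 and 7.33 in control replicates 1 to 4 and 6.68, 6.69, 6.56 and 6.60 in NEUROG2 replicates 1 to 4. All NEUROG2 arrays lay below all controls, and ORC1 fell by 0.80 ± 0.12 on the log2 scale (SE, 4 arrays a group; limma adjusted p = 0.000645). ORC2, a core subunit, read 7.52, 7.78, 7.67 and 7.37 in control arrays against 7.08, 6.91, 6.78 and 6.65 in NEUROG2 arrays. It too separated completely and fell by 0.73 ± 0.11. ORC6, the smallest and most loosely held subunit, fell by 0.58 ± 0.12, and its other probe set by 0.66. The remaining 3 subunits did not pass. ORC3 differed by -0.10 (95% interval -0.35 to 0.15), ORC4 by -0.31 (-0.55 to -0.07, limma adjusted p = 0.132) and ORC5 by -0.33 (-0.57 to -0.10, limma adjusted p = 0.0972). For ORC4 and ORC5 the arrays of the groups did not overlap, so a fall of that size is not shown to be absent.

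Both measured licensing regulators fell, where 5.37% of all genes were lower. CDT1, which loads the helicase together with CDC6, read 9.13, 8.70, 8.56 and 8.68 in control arrays and 8.28, 7.91, 7.58 and 7.92 in NEUROG2 arrays. The groups were separate, the difference was -0.85 ± 0.16 (limma adjusted p = 0.00342), and the other CDT1 probe set was lower by a log2 difference of -0.66. GMNN encodes geminin, the inhibitor that binds CDT1 and prevents a further round of licensing. It read 8.70, 8.99, 9.04 and 9.04 in control arrays and 8.43, 8.42, 8.35 and 8.55 in NEUROG2 arrays. The factor and its inhibitor thus moved in the same direction, GMNN by -0.50 ± 0.11 (limma adjusted p = 0.00905).

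CDC7 and DBF4 form the kinase that fires licensed origins. CDC7, the catalytic subunit, read 4.35, 4.84, 5.18 and 4.56 in control arrays and 4.05, 4.35, 3.73 and 3.84 in NEUROG2 arrays. It fell by 0.74 ± 0.17 (limma adjusted p = 0.015) although 1 NEUROG2 array, at 4.35, reached the lowest control. The call ended without NEUROG2 replicate 3 (limma adjusted p = 0.0613) or NEUROG2 replicate 4 (0.0563), and with the mean of its probe sets (0.058), since a second, dimmer probe set differed by 0.14. DBF4, the activating subunit, read 6.01 in control replicate 1 but 7.42, 7.64 and 7.32 in the other controls, against 6.95, 6.96, 6.84 and 6.67 in NEUROG2 arrays. With all arrays it differed by -0.24 ± 0.26, and without control replicate 1 by -0.60 (limma adjusted p = 0.00585). TIPIN, which helps to stabilise stalled forks, differed by -0.39 ± 0.14 without passing (limma adjusted p = 0.142).

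None of the 9 measured subunits of polymerase alpha-primase, polymerase delta and polymerase epsilon passed the test, and 0 of 9 is near the 5.37% of all genes that were lower. Their median difference was -0.14, and 8 of 9 were below 0. POLE2, the accessory subunit of polymerase epsilon, read 9.45, 9.43, 9.25 and 9.16 in control arrays and 9.38, 9.16, 9.11 and 9.10 in NEUROG2 arrays. The groups overlapped and the interval of the difference ran from -0.36 to 0.08. POLD3, an accessory subunit of polymerase delta with 5 probe sets, differed by -0.12 (interval -0.37 to 0.14), and its other probe sets lay between -0.52 and 0.09 without passing. Polymerase delta's POLD2, which is named by the platform's symbol and was not found among current symbols, differed by -0.03 (-0.40 to 0.34), and PRIM1, the catalytic primase subunit, by -0.05 (-0.47 to 0.37). POLA1, the catalytic subunit of polymerase alpha, differed by -0.23 (-0.53 to 0.07), its partner POLA2 by -0.39 (-0.68 to -0.11, limma adjusted p = 0.106) and POLE, the catalytic subunit of polymerase epsilon, by -0.26 (-0.56 to 0.04). Without control replicate 1 POLE3, a histone-fold subunit of polymerase epsilon, passed at -0.37 (limma adjusted p = 0.0454), against -0.28 with all arrays. POLA1 passed when its probe sets were averaged (limma adjusted p = 0.0421). PRIM2, the large primase subunit, read from 1.28 to 3.01 in control arrays, around the array medians and close to background, so its difference of 0.32 ± 0.38 is uncertain.

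The clamp and the single-strand binding complex fell. PCNA, the ring that tethers polymerases to DNA, read 11.62, 11.62, 11.60 and 11.59 in control arrays and 11.04, 11.09, 10.98 and 10.94 in NEUROG2 arrays. The spread within each group was far smaller than the distance between them, and PCNA fell by 0.60 ± 0.08 (limma adjusted p = 0.000249), to 66.2% of the control signal. All 3 subunits of RPA, the complex that coats unwound DNA, passed, where 5.37% of all genes were lower. RPA1 read 8.66, 8.77, 8.72 and 8.72 in control arrays against 8.08, 8.17, 7.92 and 8.06 in NEUROG2 arrays, a fall of 0.66 ± 0.09 (limma adjusted p = 0.000182). RPA3 fell by 0.62 ± 0.10 and RPA2 by 0.37 ± 0.09, and the groups were separate for both. The RPA2 call ended without NEUROG2 replicate 3 (limma adjusted p = 0.068), and the other RPA2 probe set did not pass against control. A dim second RPA1 probe set, with a mean of 3.76, differed by -0.03.

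Of the 5 subunits of the clamp loader, which opens PCNA and places it on DNA, 2 fell, where 5.37% of all genes were lower. All 5 differences were below 0, and differences between subunits were not tested. RFC3 read 6.55, 6.92, 6.50 and 6.21 in control arrays and 5.88, 6.08, 5.57 and 5.38 in NEUROG2 arrays, without overlap, and fell by 0.81 ± 0.17 (limma adjusted p = 0.00739). RFC4 fell by 0.35 ± 0.08, the smallest fall among the 20, and its call ended without NEUROG2 replicate 3 (limma adjusted p = 0.0503). RFC2 differed by -0.27 ± 0.11 and RFC5 by -0.10 ± 0.15 without passing. RFC1, the large subunit, read 6.34 in control replicate 1 and 7.67, 7.99 and 7.84 in the other controls, against 6.79, 7.25, 6.59 and 6.62 in NEUROG2 arrays. Its difference was -0.65 ± 0.28 with all arrays (limma adjusted p = 0.228) and -1.02 without control replicate 1 (limma adjusted p = 0.000552), and its other 2 probe sets were also lowest of the controls in that array.

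Of 3 enzymes that process Okazaki fragments, 2 fell. FEN1, the flap endonuclease, read 7.20, 7.45, 7.26 and 7.25 in control arrays and 6.60, 6.82, 6.41 and 6.40 in NEUROG2 arrays, and fell by 0.73 ± 0.11 (limma adjusted p = 0.000554). DNA2, a nuclease and helicase that trims long flaps, fell by 0.73 ± 0.12, and its other probe set by 0.80. LIG1, the ligase that seals the fragments, read 6.46, 5.92, 5.36 and 5.77 in control arrays and 5.78, 5.24, 5.48 and 5.31 in NEUROG2 arrays. The groups overlapped and LIG1 did not pass (-0.43 ± 0.19, limma adjusted p = 0.261). Of the 12 genes of clamp, loader, RPA and fragment processing, 8 fell, where 5.37% of all genes were lower, with a median difference of -0.61.

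Nucleotide supply held the largest fall of the 42 genes. TK1, the thymidine kinase of the salvage pathway, read 8.86, 8.51, 8.31 and 8.47 in control arrays and 7.40, 7.51, 7.14 and 7.25 in NEUROG2 arrays. Every NEUROG2 array lay below every control, and the difference of -1.21 ± 0.13 (limma adjusted p = 2.64e-05) left 43.2% of the control signal. RRM2, the small subunit of ribonucleotide reductase that rises and falls with S phase, read 10.37, 10.41, 10.53 and 10.40 against 9.75, 9.77, 9.58 and 9.51, and fell by 0.77 ± 0.09 (limma adjusted p = 8.3e-05). Its partner RRM1, the large subunit, varied more within groups: 8.09, 7.91, 7.34 and 7.46 in control arrays and 7.42, 7.52, 7.08 and 7.03 in NEUROG2 arrays. RRM1 did not pass (-0.44 ± 0.19, interval -0.84 to -0.03, limma adjusted p = 0.24). TYMS, the thymidylate synthase, read 9.63, 9.57, 9.67 and 9.69 against 9.09, 9.29, 8.91 and 9.19 and fell by 0.52 ± 0.10 (limma adjusted p = 0.00333). DUT removes dUTP from the pool. Its brightest probe set differed by -0.33 ± 0.10 with separate groups but did not pass (limma adjusted p = 0.0744), and the next brightest, at -0.37, passed at 0.049. With trend and robust variance estimates the brightest passed as well (0.0231).

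Among the genes that rebuild chromatin, UHRF1 and SLBP fell most. UHRF1, which brings the maintenance methylase DNMT1 to newly copied DNA, read 6.05, 6.17, 6.33 and 5.95 in control arrays and 5.32, 5.17, 4.92 and 4.62 in NEUROG2 arrays, a fall of 1.11 ± 0.14 (limma adjusted p = 9.14e-05). A UHRF1 probe set of lower signal fell by 0.94, and 2 near background did not pass. DNMT1 itself differed by -0.12 ± 0.16 (interval -0.47 to 0.22). SLBP, which binds the stem-loop of replication-dependent histone transcripts, read 7.92, 8.26, 8.62 and 8.38 against 7.54, 7.33, 7.06 and 7.38. It fell by 0.97 ± 0.15 (limma adjusted p = 0.00054), and its other probe set by 1.02. CHAF1A and CHAF1B are subunits of the histone chaperone that deposits new nucleosomes at the fork. CHAF1A read 6.85 in control replicate 1, below all NEUROG2 arrays (7.12, 7.33, 6.95 and 7.13), and 7.86, 8.09 and 7.91 in the other controls. It did not pass with all arrays (-0.55 ± 0.20, limma adjusted p = 0.153) and stood at -0.82 without control replicate 1 (limma adjusted p = 0.000234). CHAF1B fell by 0.59 ± 0.14 (limma adjusted p = 0.0161) with 1 control array, replicate 1 at 5.98, inside the NEUROG2 range of 5.71 to 6.00. Leaving out any of control replicates 2 to 4, or of NEUROG2 replicates 3 and 4, ended the call, with limma adjusted p from 0.0502 to 0.0609, as did averaging its probe sets (0.0603).

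**Figure D2:**
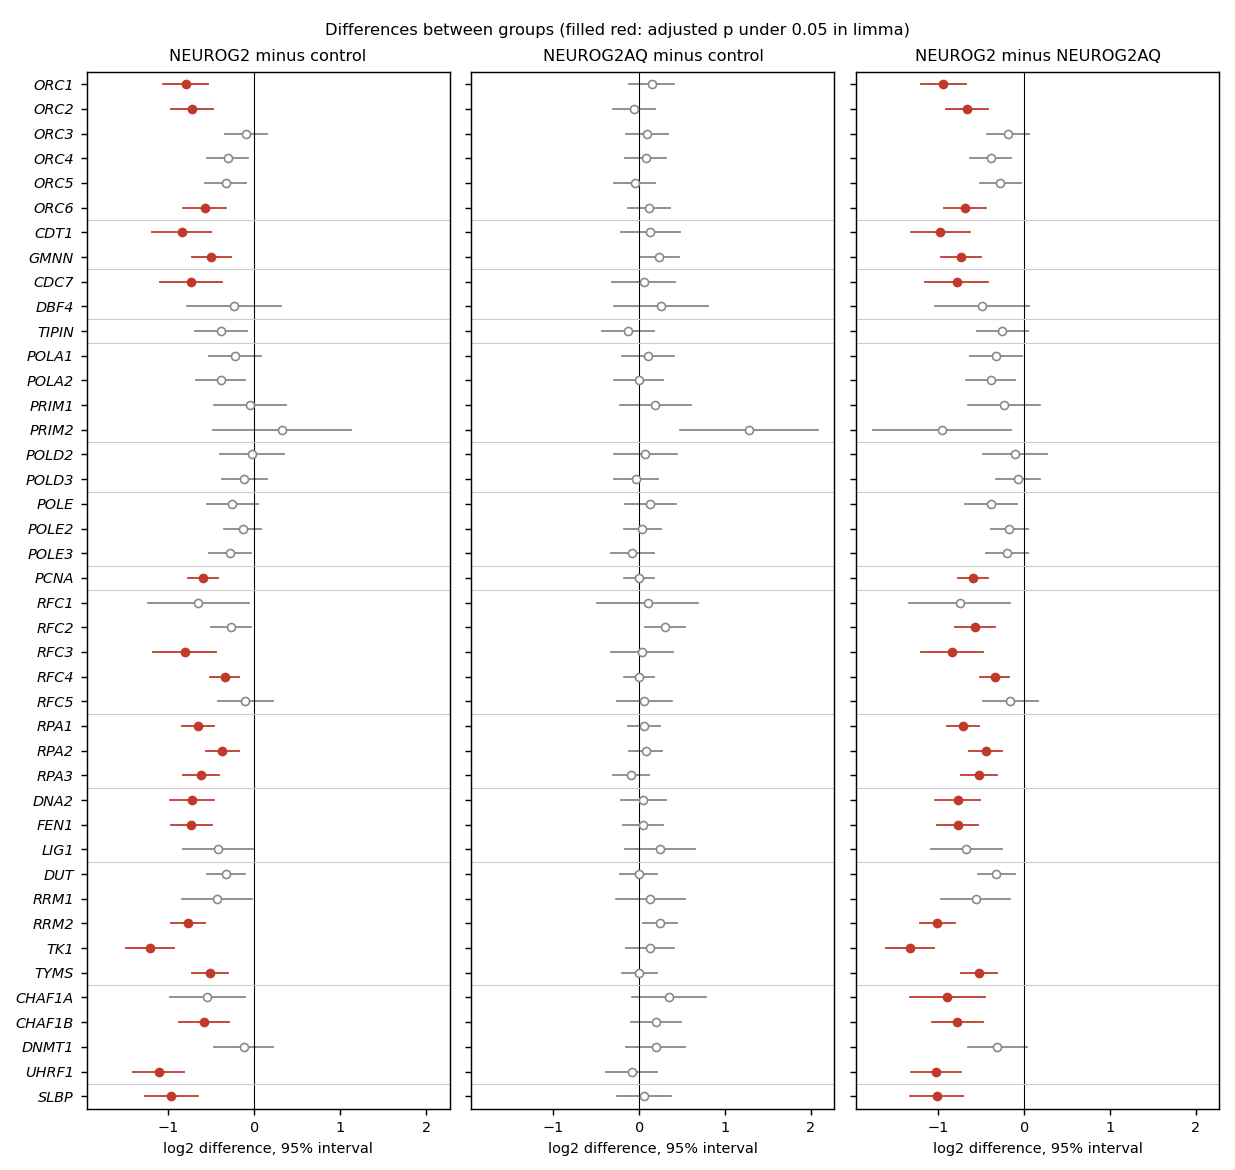
Log2 difference between groups for each of the 42 genes with its 95% interval from limma (horizontal axis), in 3 panels for NEUROG2 minus control, NEUROG2AQ minus control and NEUROG2 minus NEUROG2AQ; filled red points passed an adjusted p of 0.05. The left panel holds 20 filled points, the middle 0 and the right 22, all of them below 0.

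Genes with several probe sets gave a check within the gene. Of the 42 genes, 23 had 1 probe set and 19 had more, up to 5. Over all 69 probe sets, 26 were lower and none higher, where 3.38% of all probe sets were lower and 3.3% higher. Of the 20 genes that fell, 10 had further probe sets, 12 in all, of which 5 also fell and 7 did not pass. DUT was the gene whose brightest probe set did not pass while another fell. No gene had 1 probe set higher and another lower past the threshold.

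**Figure D3:**
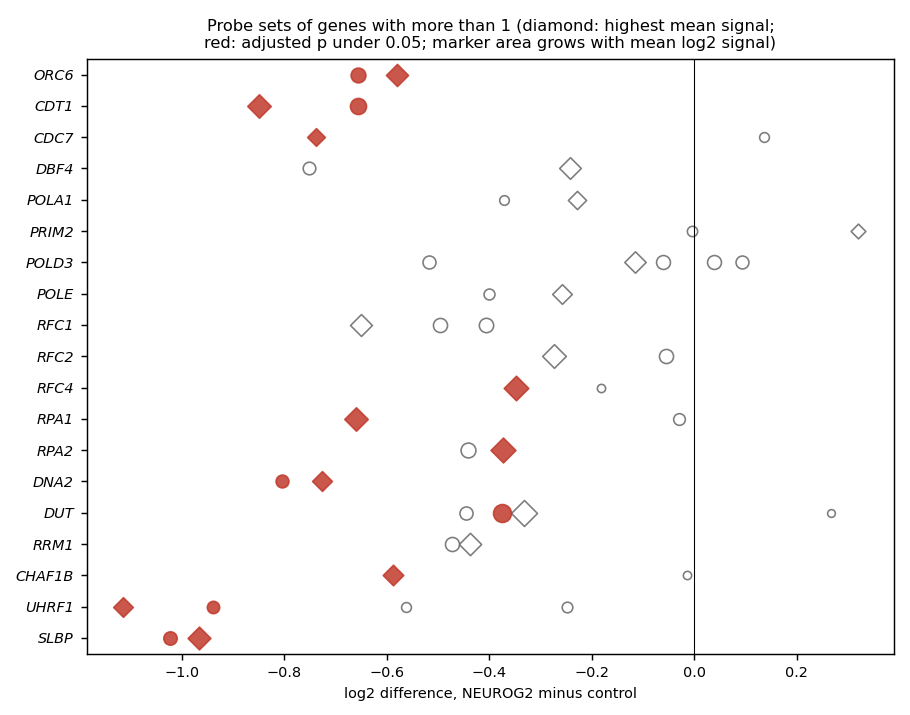
Log2 difference of NEUROG2 minus control (horizontal axis) for every probe set of the 19 genes with more than 1; diamonds mark the probe set of highest mean signal, filled red symbols an adjusted p below 0.05, and symbol area grows with mean log2 signal. The probe sets of ORC6, CDT1, DNA2 and SLBP all passed, while small open symbols, the dim probe sets of CDC7, RFC4, RPA1 and CHAF1B, lie between -0.18 and 0.14.

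Among the 45 listed genes, 16 belong to a widely used list of human S phase transcripts for single-cell data, and 15 of these were measured. Of the 15, 9 fell with a median difference of -0.50. Of the other 27 measured genes, 11 fell with a median of -0.39, where 5.37% of all genes were lower. The difference between these shares was not tested. The S phase transcripts that fell were GMNN, PCNA, RPA2, FEN1, TYMS, RRM2, CHAF1B, UHRF1 and SLBP, and those that did not pass were TIPIN, POLA1, POLD3, PRIM1, RFC2 and RRM1.

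The comparison of NEUROG2AQ with control asks whether the AQ form has the same effect, and it shares its control arrays with the comparison above. Of 42 genes, 0 passed in limma, where 0.0923% of all genes were lower and 0.0154% higher. At an unadjusted p under 0.05 there were 4 genes, PRIM2, RFC2, RRM2 and GMNN, with no p adjusted over all probe sets below 0.426, and 7.98% of all genes reached that level. Leaving out PRIM2, the differences ran from -0.13 to 0.35, with a median of 0.07 over all 42 genes and of 0.01 over all genes. The upper end was CHAF1A, for which control replicate 1 was the lowest control at 6.85. Control replicate 1 was the lowest control for 15 of 42 genes and the highest for 15, against 31.8% and 39.1% of all genes. Among the alternative settings CHAF1A went down to 0.07, DBF4 to -0.11 and RFC1 to -0.27, and LIG1 went up to 0.44. NEUROG2AQ means lay above control means for 31 of 42 genes, as they did for 52.1% of all genes. PCNA was measured with little spread: it read 11.61, 11.56, 11.67 and 11.58 in NEUROG2AQ arrays, and its difference from control was -0.00 (interval -0.18 to 0.17). TK1 read 8.68, 8.44, 8.66 and 8.87 in NEUROG2AQ arrays, which overlap the controls, and differed by 0.12 (-0.16 to 0.40). UHRF1 read 6.18, 5.99, 6.01 and 5.96 and differed by -0.09 (-0.38 to 0.20). These intervals exclude falls of the size measured with NEUROG2 for the same 3 genes. Of all 69 probe sets none passed, where 0.0584% of all probe sets were lower and 0.00796% higher.

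For 2 genes every NEUROG2AQ array lay above every control array, and for none below; 1.94% of all genes lay wholly above and 2.7% wholly below. RRM2 read 10.61, 10.65, 10.78 and 10.62 in NEUROG2AQ arrays, above the highest control of 10.53. Its difference of 0.24 ± 0.09 did not pass (limma adjusted p = 0.638). RFC2 read 8.78, 8.94, 9.05 and 8.99 against 8.65, 8.77, 8.74 and 8.41 in control arrays, a difference of 0.30 ± 0.11 that did not pass either (limma adjusted p = 0.589). PRIM2 showed the widest scatter, at 4.01, 4.35, 3.59 and 2.30 in NEUROG2AQ arrays. Replicate 4 lay within the control range, and the difference of 1.28 ± 0.38 did not pass (limma adjusted p = 0.426). It passed without both control replicate 1 and NEUROG2AQ replicate 4, the array lowest in the 3' excess, at 1.36 (limma adjusted p = 0.0165). Its other probe set read 4.17, 3.34, 3.51 and 2.54 in NEUROG2AQ arrays and 1.41, 2.72, 3.24 and 2.28 in control arrays.

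The direct comparison of NEUROG2 with NEUROG2AQ tests the difference between the 2 forms, and shares its NEUROG2 arrays with the comparison against control. Of 42 genes, 22 were lower with NEUROG2 and none higher, where 4.14% of all genes were lower and 5.55% higher. The NEUROG2 mean was below the NEUROG2AQ mean for all 42 genes, as it was for 51.0% of all genes. For 31 of 42 every NEUROG2 array lay below every NEUROG2AQ array, against 9.45% of all genes, and for 0 above, against 9.26%. Over the 69 probe sets, 30 were lower and none higher, where 2.39% of all probe sets were lower and 3.67% higher. The 22 were the 20 genes that fell against control, with RFC2 and CHAF1A in addition.

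TK1 differed most between the forms, by -1.33 ± 0.13 (limma adjusted p = 8.21e-06). UHRF1 and SLBP each differed by -1.02, RRM2 by -1.01 ± 0.09 (limma adjusted p = 4.42e-06) and CDT1 by -0.98 ± 0.16. CDT1 read 8.89, 8.60, 8.97 and 9.13 in NEUROG2AQ arrays, all above the highest NEUROG2 array at 8.28. ORC1 read 7.37, 7.45, 7.77 and 7.70 and differed by -0.94 ± 0.12 (limma adjusted p = 0.000131). RFC2 differed by -0.57 ± 0.11 (limma adjusted p = 0.00376), and by -0.25 with its probe sets averaged, where it did not pass (0.286). Its second probe set, whose platform name marks it as reading the opposite orientation, differed by 0.07. CHAF1A read 8.01, 7.99, 8.17 and 7.92 in NEUROG2AQ arrays and differed by -0.89 ± 0.20 (limma adjusted p = 0.0138), a call that ended without NEUROG2 replicate 3 (0.054). RFC4 did not pass without that array (0.0528), without NEUROG2AQ replicate 2 (0.0502) or with its probe sets averaged (0.296). LIG1 lay just outside, at -0.67 ± 0.19 (limma adjusted p = 0.0516), with NEUROG2AQ arrays at 6.13, 5.86, 6.15 and 6.35 above every NEUROG2 array. It passed in 11 of 21 alternative settings. ORC4 was similarly placed (-0.39 ± 0.11, limma adjusted p = 0.054) and passed in 5. The 9 polymerase genes again had 0 past the test, near the 4.14% of all genes, with a median difference of -0.24, and for 3 of them, POLA1, POLA2 and POLE, the NEUROG2 arrays all lay lower, against 9.45% of all genes. Without control replicate 1, which changes only the pooled spread here, POLA2 passed at -0.39 (limma adjusted p = 0.0312) and POLE at -0.39 (0.0455), as did DBF4 (0.0143) and RFC1 (0.00341). The other DBF4 probe set was lower with all arrays, where the brightest did not pass. PRIM2 passed without NEUROG2AQ replicate 4, at -1.38 (limma adjusted p = 0.0118), against -0.96 ± 0.38 with all arrays.

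The replicates did not weigh equally. NEUROG2 replicate 3 was the lowest of its group for 25 of 42 genes and replicate 4 for 15, against 29.2% and 24.6% of all genes. Replicate 1 was the lowest for 0, against 24.2% of all genes. Replicates 1 and 2 were the highest for 19 and 20 genes, against 25.7% and 30.3% of all genes. The mean signal over the 42 genes was 7.20, 7.17, 6.95 and 7.01 in NEUROG2 replicates 1 to 4, between 7.50 and 7.65 in control arrays and between 7.62 and 7.72 in NEUROG2AQ arrays. The mean over neuronal markers was 7.07, 7.26, 7.30 and 7.26 in NEUROG2 replicates 1 to 4, and the part of these markers in the result was not tested. Control replicate 1 was the highest control for 15 genes and the lowest for 15, against 39.1% and 31.8% of all genes. Of the 20 genes that fell against control, all 20 did so without it, together with DBF4, POLE3, RFC1 and CHAF1A. Without NEUROG2 replicate 3, 16 of the 20 did.

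**Figure D4:**
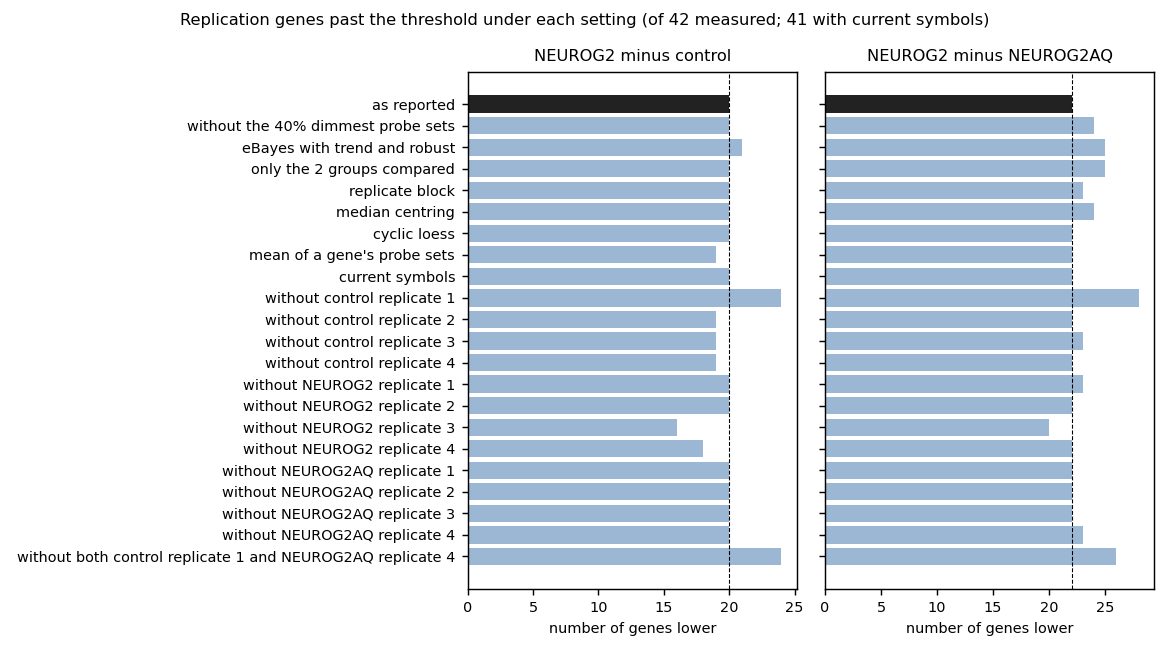
Number of the 42 genes lower at an adjusted p of 0.05 (horizontal axis, from 0) as reported (black bar, dashed line) and under 21 other settings (blue bars), for NEUROG2 minus control and NEUROG2 minus NEUROG2AQ. The counts run from 16 to 24 on the left and from 20 to 28 on the right, highest without control replicate 1 (on the left equally so without both it and NEUROG2AQ replicate 4) and lowest without NEUROG2 replicate 3.

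Other genes of DNA replication, from 4 lists, gave the surroundings of these changes. Together 49 of 65 listed genes were measured, and with NEUROG2 16 fell and none rose against control, where 5.37% of all genes were lower, with a median difference of -0.29. Against NEUROG2AQ 21 were lower, where 4.14% of all genes were, and between NEUROG2AQ and control 0 passed. Of 8 measured helicase and helicase-loading genes, 4 fell: CDC45 (-1.40 ± 0.13), which joins the helicase, MCM10 (-1.09 ± 0.19), GINS1 (-0.84 ± 0.11) and GINS3 (-0.33 ± 0.09). Of 16 firing and fork partners, 7 fell, among them DTL (-1.04 ± 0.12), which targets CDT1 for destruction, the fork checkpoint mediator CLSPN (-1.02 ± 0.22), the loader component CHTF8 (-1.0 ± 0.14) and the topoisomerase TOP2A (-0.96 ± 0.11). Of 16 other nucleotide enzymes, 3 fell: DCK (-1.03 ± 0.13), the deoxycytidine kinase, SAMHD1 (-0.60 ± 0.11), which breaks deoxynucleotides down, and the purine synthesis enzyme PAICS (-0.49 ± 0.10). The median difference of these 16 was -0.15. Of 9 chromatin genes, HELLS (-0.74 ± 0.15), a remodeller needed for DNA methylation, and MMS22L (-0.51 ± 0.14) fell. MMS22L read 2.87 on average in control arrays, around the array medians and close to background, and its fall is uncertain in size.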

How the data were processed

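RNA of sorted GFP-positive cells was hybridised to 12 Affymetrix arrays, 4 each for control, NEUROG2 and NEUROG2AQ. The authors deposited log2 signals per probe set, made with GCOS, RMA and the affy package per the submitters' processing notes, without versions; base 2 was inferred from the range of 0.49 to 13.97. The genome build is not given in the sources used here. Of 38535 probe sets, 37693 chicken ones were tested and 842 controls and other probe sets left out. Names are the platform's; 177 tested probe sets with several symbols and 10350 with none were not named. One limma model (version 3.58.1, R 4.3.3; lmFit and eBayes) held the 3 groups and no other term; its two-sided p-values were adjusted by Benjamini and Hochberg's method across the 37693 probe sets, and 0.05 was the threshold. All members could be named; of the other replication lists, up to 4 genes past the threshold with the largest change each. Members, lists and alternatives were chosen with earlier results of these data known. The fit was tested on simulated data. The precision of every value is limited by the number of arrays.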

Additional observations from a re-analysis of the deposited data

Results flagged for a closer look

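Of 126 groups of 4 arrays, 1 for each of 42 genes and 3 groups, 6 held an array whose gap to the nearest of the others was a large enough share of the group's range to pass Dixon's test; chance flags about 1 in 20 groups. Control replicate 1 was this array for 3 genes. GMNN read 8.70 there and 8.99 to 9.04 in the other controls, RPA3 read 10.19 against 10.48 to 10.49, and DNMT1 read 4.76 against 4.12 to 4.23. In the NEUROG2 group, TIPIN read 4.98 in replicate 1 against 4.60 to 4.64, and RPA3 read 9.73 in replicate 3 against 9.80 to 9.81. In the NEUROG2AQ group, RFC3 read 6.89 in replicate 3 against 6.45 to 6.48. GMNN and RPA3 fell with NEUROG2 with and without control replicate 1.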

How the results depend on the processing

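The alternatives were 21: no dim probe sets (the lowest 40%), trend and robust, a fit of only the 2 groups, a replicate block, centring on the median, cyclic loess, averaged probe sets, current symbols, each array left out, and 2 arrays left out. With current symbols POLD2 had no match and 41 genes remained. No member's call reversed. Of the 20 genes lower in NEUROG2 minus control, 16 passed in every alternative, and of the 22 lower in NEUROG2 minus NEUROG2AQ, 19. Leaving out 1 array gave 16 to 24 genes in the former comparison and 20 to 28 in the latter. For NEUROG2AQ minus control it gave 0 in each case, and 1 gene, PRIM2, passed without both control replicate 1 and NEUROG2AQ replicate 4. Deviations of same-numbered arrays correlated between -0.30 and 0.23, and the same number was the best match in 5 of 12 pairs checked. In NEUROG2 minus control the correlations were 0.18, 0.23, -0.02 and 0.13 for replicates 1 to 4. These values do not settle whether replicate numbers pair the arrays, and the model used no pairing. With replicate as a block, 20, 0 and 23 genes passed in NEUROG2 minus control, NEUROG2AQ minus control and NEUROG2 minus NEUROG2AQ. Over all probe sets, 25 passed in NEUROG2AQ minus control, 44 with trend and robust, 8 with only the 2 groups, and 10 to 30 with 1 array left out. The share of NEUROG2 minus control calls that were higher, 49.4%, was 43.7% after median centring and 55.8% after cyclic loess; the members below 0 numbered 41, 41 and 39.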
